A study of Mus musculus with 4 samples.

Results

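The transcripts described here are the long non-coding RNAs (lncRNAs) of the NONCODE catalogue that the lncRNA annotation lists in the class Antisense. They were taken as every row with a NONCODE mouse transcript identifier (NONMMUT) and that class, which gave 4898 of the 131850 lncRNAs listed. Levels and changes were examined where the mean of the 4 samples reached 0.1 FPKM. FPKM scales the fragments of a transcript by its length and by the depth of the library. This left 1121 members tested, 22.9% of those listed, against 18.3% of all lncRNAs.

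C3H10T1/2 is an established mouse mesenchymal stem cell (MSC) line. The nucleoside analogue 5-AZA (5-azacytidine) lowers DNA methylation and is used to start myogenic differentiation in these cells. RNA depleted of ribosomal RNA was sequenced from untreated C3H10T1/2 cells (replicates 1 and 2) and from cells exposed to 20 μM 5-AZA for 72 hours and then grown for 21 days in fresh medium (replicates 101 and 102). No time in culture is listed for the untreated cells, so the 5-AZA exposure and the weeks of culture after it cannot be told apart. The study calls the samples of a group biological repeats, and the labels name no separate cultures, so the p-values measure the spread between these samples.

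An antisense lncRNA is, by the usual definition, transcribed from the DNA strand opposite to a gene and overlaps it. Such RNAs are known as regulators of the gene they face in some loci, through chromatin, through transcription itself or through pairing with the other RNA, while many others have no known role. NONCODE gathers lncRNAs from many sources, from RefSeq and Ensembl to published assemblies, and the class beside each transcript is an annotation and not a measurement.

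The cell identity was examined first. Of 10 mesenchymal markers, 9 reached 1 FPKM in both untreated samples and 10 in both 5-AZA samples. Their levels summed to 8882 and 8916 FPKM in untreated and 5782 and 5683 FPKM in 5-AZA cells. S100a4 and Vim made up most of these sums, with log2 fold changes of −0.98 and −0.87. Col1a1, Col1a2 and Prrx1 were also below 0, while Col3a1, Thy1, Pdgfrb, Cd44 and Twist1 were above it. None of the mesenchymal markers below 0 passed the test described below. Of 10 skeletal muscle markers, 9 had a value, none reached 1 FPKM in both untreated samples and 8 did so in both 5-AZA samples. Their sums were 1.70 and 1.32 FPKM against 876 and 1324 FPKM. The immune markers Ptprc, Adgre1 and Cd3e stayed below 0.1 FPKM in every sample and Cd68 had 1.16 and 1.47 FPKM against 2.27 and 3.69 FPKM, while the 4 epithelial markers summed to 0.941 and 0.877 FPKM in untreated and 19.9 and 25.1 FPKM in 5-AZA cells, with the keratins Krt8 and Krt18 called higher and Cdh1 at 0.500 and 0.497 FPKM against 0.157 and 0.367 FPKM. The 3 endothelial markers summed to at most 0.653 FPKM and the 3 neural markers to at most 1.29 FPKM in any sample. Besides the muscle markers and keratins, Thy1, Cd68, Epcam and Cdh5 were called higher, by the test described below. These markers moved together with the lncRNA changes below, and their part in them was not tested. Fewer cells that express a transcript and less RNA per cell cannot be told apart in these bulk samples.

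The class was next set against the strand of the genes. Of the 21896 protein-coding genes of RefSeq on GRCm38, a strand was on hand for 17491 (79.9%). Among the 4898 listed members, 587 overlapped protein-coding genes on the opposite strand only, 908 on the same strand only and 44 on both strands. A further 479 overlapped a gene whose strand was not on hand, and 2880 overlapped no protein-coding gene. Of the 1539 members with a strand to compare, 38.1% lay opposite to genes only, against 39.3% of the NONCODE class Linc, 32.3% of Sense No Exonic, 31.7% of Exonic and 55.9% of transcripts with no class. The members tested were further from the definition: 85 lay opposite, 460 on the same strand, 18 on both, 178 against a gene without a strand and 380 against none. Thus 15.1% of the 563 with a strand were opposite only and 81.7% on the same strand only, beside 14.1% and 82.9% for Linc. The class therefore did not separate these transcripts by strand, and the members are called here transcripts listed as Antisense.

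**Figure D1:**
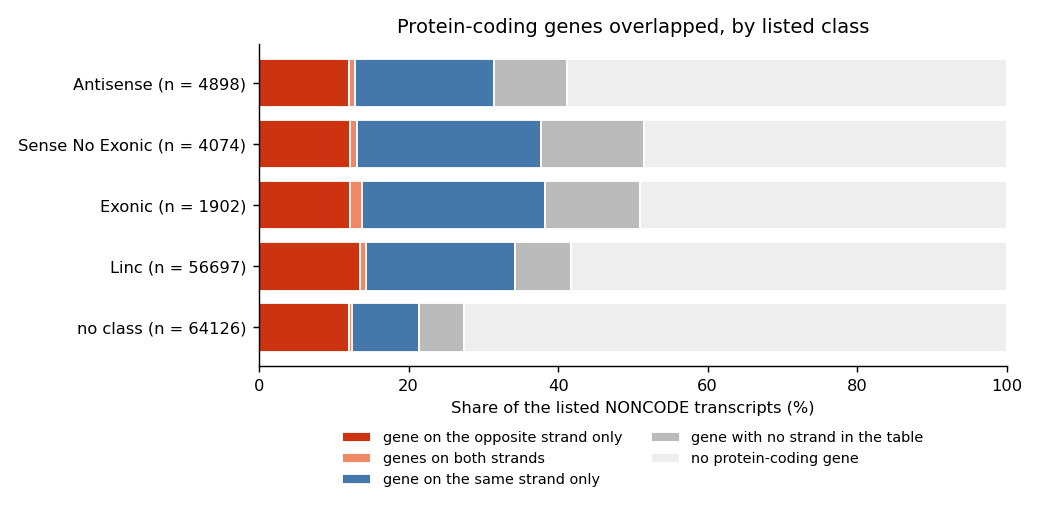
Share of the listed NONCODE transcripts of each class (horizontal axis, %) that overlap protein-coding RefSeq genes on the opposite strand, on the same strand, on both, on a strand not on hand, or not at all. The bar of the 4898 transcripts listed as Antisense has a strand makeup close to that of Linc, with 2880 of them overlapping no protein-coding gene.

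Other features of the annotation went the same way. Of the listed members, 482 began at the same base and strand as a transcript of another class. No member lay on chromosomes 5, 6 and 7, although 7884, 6627 and 7365 lncRNAs were listed there, while chromosome 1 held 884, or 10.2% of its lncRNAs, and chromosome 12 held 21, or 0.341%. The exact span of a RefSeq gene was shared by 123 listed and 19 tested members, among them Rmrp, the RNA of the ribonuclease MRP complex, Norad, a cytoplasmic RNA that binds Pumilio proteins, and Kank4os, which lies opposite to Kank4. Hairpins of microRNAs lay within the genomic span of 5 tested members, 11 hairpins in all, and 10 of them were on the member's own strand. Exons and introns were not told apart in these spans. The span of NONMMUT022349.2 held 6, Mir17, Mir18, Mir19a, Mir20a, Mir19b-1 and Mir92-1, the microRNA cluster that promotes proliferation. The transcript itself had a mean of 0.517 FPKM and a log2 fold change of 0.065, which are not values of the microRNAs. The exception in strand was Mir181b-2, which lay opposite to NONMMUT037007.2.

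DNA methylation in mammals falls mostly on the C of CpG dinucleotides, which are dense at the start of many genes. Of the tested members, 77 began within 50 bases of the start of a RefSeq gene on the same strand, at 73 genes. The promoters of these genes were taken as 300 bases, from 250 before to 50 after the start. Counted once per member, they held a median of 19 CpG, against 7 over the 32851 promoters of RefSeq on GRCm38. The 77 members had reached the limit of 0.1 FPKM, while the 32851 promoters were not chosen by level. Of the 77, 1 passed the test below, in which 1.14% of all lncRNAs did, and their median log2 fold change was 0.066. The promoter of that member, NONMMUT042239.2, is shown with those of a pair of members at higher levels that did not pass, one with many CpG and one with few. The sequences run 5′ to 3′ on the strand of the gene, from GRCm38.p6, with each CpG in capitals.

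7530428D23Rik, chr3:21800722-21801021, minus strand, 3 CpG, the promoter at the start of NONMMUT042239.2: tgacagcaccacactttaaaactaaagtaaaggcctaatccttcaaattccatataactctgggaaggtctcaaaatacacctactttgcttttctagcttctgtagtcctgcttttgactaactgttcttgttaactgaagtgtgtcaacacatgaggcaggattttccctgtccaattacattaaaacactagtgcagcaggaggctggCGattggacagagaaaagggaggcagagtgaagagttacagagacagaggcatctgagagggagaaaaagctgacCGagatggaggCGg
Slc38a2, chr15:96699679-96699978, minus strand, 41 CpG, the promoter at the start of NONMMUT024839.2: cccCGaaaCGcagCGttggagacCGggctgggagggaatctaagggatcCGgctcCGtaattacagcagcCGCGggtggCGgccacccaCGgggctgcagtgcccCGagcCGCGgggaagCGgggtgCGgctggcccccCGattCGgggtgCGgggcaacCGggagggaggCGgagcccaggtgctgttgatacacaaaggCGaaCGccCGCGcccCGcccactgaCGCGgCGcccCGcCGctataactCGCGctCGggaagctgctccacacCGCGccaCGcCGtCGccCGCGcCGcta
Gm14440, chr2:175274875-175275174, plus strand, 5 CpG, the promoter at the start of NONMMUT041688.2: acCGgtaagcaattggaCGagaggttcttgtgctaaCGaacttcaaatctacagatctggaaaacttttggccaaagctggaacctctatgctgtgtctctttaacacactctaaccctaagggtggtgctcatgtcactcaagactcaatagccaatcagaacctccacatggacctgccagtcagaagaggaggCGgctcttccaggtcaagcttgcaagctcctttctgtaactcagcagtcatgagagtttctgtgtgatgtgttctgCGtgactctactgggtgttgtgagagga

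At least as many CpG as in the promoter of 7530428D23Rik were held by 76.7% of all promoters, as in that of Slc38a2, a neutral amino acid transporter, by 3.46%, and as in that of Gm14440 by 62.0%. NONMMUT024839.2 had a mean of 13.1 FPKM and a log2 fold change of −0.34, and NONMMUT041688.2 a mean of 23.7 FPKM and −0.19. CpG methylation itself was not measured in these samples.

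Most members were low or silent. Of the 4898, 2259 were at 0 in all 4 samples and 1518 were above 0 with a mean below 0.1 FPKM, and 818 held a value above 0 but below 1e-10 FPKM, which carries no measurable level. The limit itself fell between NONMMUT084108.1, with a mean of 0.101 FPKM, and NONMMUT072181.2, with 0.0999 FPKM. Of the 1121 tested, 930 reached 0.1 FPKM in both group means, 87 in the 5-AZA mean only and 104 in the untreated mean only. The last 2 of these sets entered through the group in which they were higher, so the counts of changes below hold members that had to differ.

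The median level of the tested members was 0.515 FPKM, against 0.461 FPKM over all 24075 lncRNAs tested. A mean of at least 1 FPKM was held by 331, of at least 10 FPKM by 38 and of at least 100 FPKM by 6. Single-exon transcripts made up 74.8% of the tested members but 45.5% of those listed, and the median length was 1812 bases against 1056 bases. Over all lncRNAs tested these were 73.4% and 1549 bases. The tested share fell with the number of exons, from 37.6% of 2231 single-exon members to 12.5% of 1365 with 2 exons and 8.60% of 1302 with 3 or more exons. It rose with length, from 6.62% of members under 500 bases to 13.8%, 27.5% and 40.4% in the bins from 500, from 1000 and from 2000 bases upward.

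The summed level was carried by very few members. It was 21362 and 18054 FPKM in untreated replicates 1 and 2 and 21928 and 23517 FPKM in 5-AZA replicates 101 and 102, a ratio of means of 1.15. The exact two-sided permutation test over the 4 samples gave p = 0.333, the smallest that 2 samples against 2 allow. As a share of the FPKM of all lncRNAs the members held 14.5% and 12.0% in untreated and 12.9% and 10.5% in 5-AZA cells, with groups that overlapped (exact permutation p = 0.667).

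A pair of short transcripts made up 76.8% to 82.0% of the sum in every sample. NONMMUT024712.2, 338 bases at chr15:93234363-93234700 on the plus strand, had 9266 and 6993 FPKM in untreated and 9822 and 7811 FPKM in 5-AZA cells. NONMMUT046978.2, 275 bases at chr4:43492785-43493059 on the minus strand, has the span of Rmrp, and had 8257 and 7521 FPKM against 7139 and 10261 FPKM. In both, the groups overlapped, with log2 fold changes of 0.12 and SE of 0.25 (limma adjusted p = 0.855 and 0.861). NONMMUT033601.2 followed at 1406 and 1168 FPKM against 1264 and 1458 FPKM (log2 fold change 0.083, SE 0.19, limma adjusted p = 0.874), and it lies at chr19:5795691-5797464 on the strand and within the span of Malat1, an abundant nuclear lncRNA. The sign of this last value turned under quantile normalization. FPKM divides by length, so values of transcripts this short rest on the fragment length assumed in the scaling.

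Without the pair at the top, the sum was 3839 and 3539 FPKM in untreated and 4967 and 5446 FPKM in 5-AZA cells, a ratio of means of 1.41 (exact permutation p = 0.333). Without the members that passed the test as well, which were chosen by their change, it was 3772 and 3482 FPKM in untreated and 3300 and 3398 FPKM in 5-AZA cells. The members at 1 FPKM or more numbered 359 and 340 in untreated and 306 and 300 in 5-AZA cells.

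The change from untreated to 5-AZA was tested with limma on log2(FPKM + 0.1), over all 24075 lncRNAs at once. A transcript was called where the Benjamini-Hochberg adjusted p was below 0.05 and the change over 2-fold, and a log2 fold change on this scale understates the change of a low transcript. Of the 1121 members, 15 were called higher and 3 lower after 5-AZA, together 1.61% of those tested, while 1.14% of all lncRNAs tested were called (0.984% higher and 0.154% lower). The members' share was near that background. The 3 called lower had 5-AZA means below 0.1 FPKM. Among those called higher, NONMMUT094580.1, NONMMUT033779.2, NONMMUT042239.2, NONMMUT026279.2 and NONMMUT042881.2 had untreated means below it. These calls entered the test only through the group in which they were high. For NONCODE classes, the shares called were 1.04% for Linc, 1.33% for Sense No Exonic and 0.928% for Exonic. Among protein-coding genes fitted in the same manner, 14.4% of 13199 were called.

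Below the threshold for calls, most members were lower after 5-AZA. The log2 fold change was above 0 in 369 and below 0 in 752, with a median of −0.25 and quartiles of −0.66 and 0.17, and the median over all lncRNAs tested was −0.23. The 2 groups of samples did not overlap in 150 members that were higher (13.4%, against 14.6% of all lncRNAs) and in 412 that were lower (36.8%, against 31.7%). At an unadjusted p below 0.05, 52 members were higher and 91 lower, where 5.25% and 7.89% of all lncRNAs were. When every sample was centred on its own median, the median moved to −0.085 for the members and −0.060 for all lncRNAs, so the lower side is that of the whole lncRNA table and depends on the scaling.

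**Figure D2:**
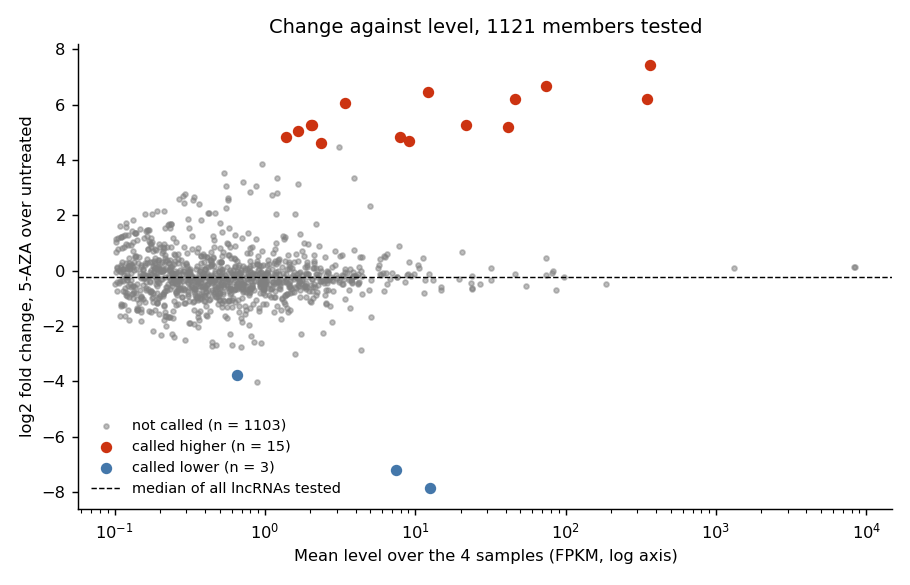
Log2 fold change of 5-AZA over untreated (vertical axis) against the mean level over the 4 samples (FPKM, log axis) for the 1121 members tested, with the called members in colour and a dashed line at the median of all lncRNAs tested. The 15 called higher and 3 called lower have large changes, and the 3 members above 1000 FPKM lie close to 0. Position alone does not set the calls: NONMMUT037179.2, at −4.03, was not called, and NONMMUT095937.1, at −3.78, was.

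Exon number and length, which come from the annotation and not from the values, were compared next. The 839 single-exon members tested had a median log2 fold change of −0.28, the 170 with 2 exons −0.19 and the 112 with 3 or more exons 0.039. Over all lncRNAs the same bins had −0.26, −0.15 and −0.029. Each bin held 5 members called higher, and the 3 called lower were all single-exon transcripts. The called share was thus 0.954% for 1 exon, 2.94% for 2 exons and 4.46% for 3 or more, beside 0.759%, 1.98% and 2.49% of all lncRNAs with these exon numbers. The increase with exon number was therefore also that of the lncRNAs at large.

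By length, the 60 tested members under 500 bases had a median log2 fold change of −0.19, with quartiles of −1.37 and 1.05. The 503 members of 2000 or more bases had −0.31, with quartiles of −0.62 and −0.022, so the spread was much narrower among the long transcripts. In between, the 197 members from 500 to under 1000 bases had a median of −0.20 and the 361 from 1000 to under 2000 bases −0.16. Over all lncRNAs the medians were 0.030, −0.14, −0.23 and −0.27 from the shortest bin to the longest. Of the calls, 3 higher and 1 lower were under 500 bases, 1 lower was in the bin from 500 bases, 8 higher were in the bin from 1000 bases, and 4 higher and 1 lower were of 2000 or more bases. The called shares were 6.67%, 0.508%, 2.22% and 0.994%, beside 2.56%, 1.35%, 1.04% and 0.83% of all lncRNAs in these bins. The shortest bin rests on 4 calls, and it was the bin whose median ranged most widely, from −0.23 to 0.32, when each sample was left out in turn.

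**Figure D3:**
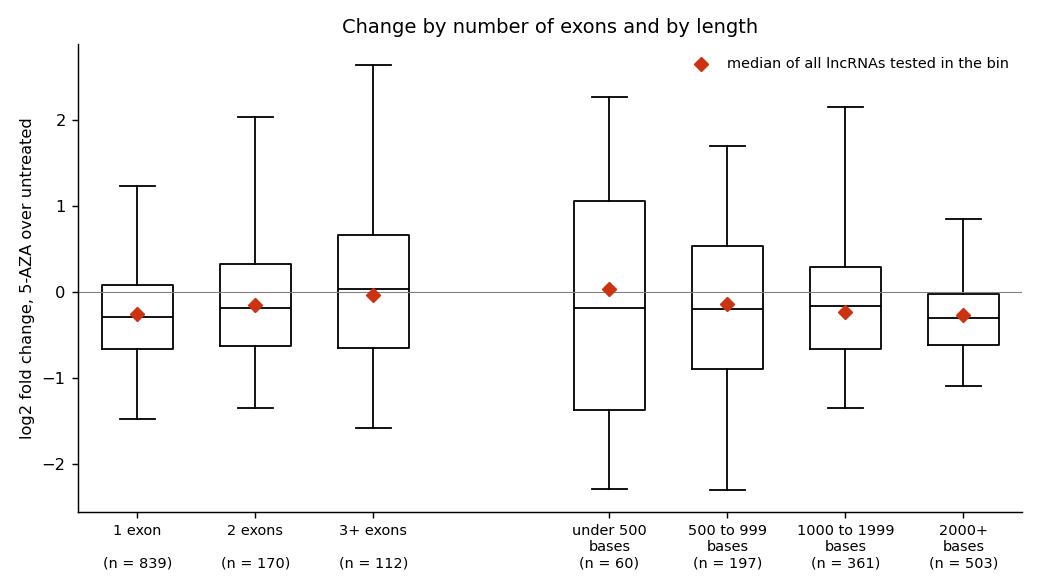
Log2 fold change of 5-AZA over untreated by number of exons and by length, for the members tested. Boxes span the quartiles with a line at the median, whiskers run from percentile 5 to percentile 95, and diamonds give the median of all lncRNAs tested in the bin. Medians run from −0.31 for members of 2000 or more bases to 0.039 for members with 3 or more exons, and the spread narrows with length.

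The members called higher were at or below 11.0 FPKM in untreated cells. Their levels summed to 16.9 and 24.5 FPKM in untreated and to 1667 and 2048 FPKM in 5-AZA cells. In each of the 15 both 5-AZA values lay above both untreated values. All 18 called members were chosen by their change in these same samples. Their separation, and the direction they kept with a sample left out, therefore add no further evidence. With 2 samples a group, leaving out any 1 of the 4 samples left no call among the members or among all lncRNAs, although all 18 kept their direction and a change over 2-fold each time. The smallest adjusted p among the members was then 0.363 without untreated replicate 1, 0.344 without untreated replicate 2, 0.155 without 5-AZA replicate 101 and 0.177 without 5-AZA replicate 102. In these fits the median log2 fold change ranged from −0.33 to −0.20 for the members and from −0.29 to −0.18 for all lncRNAs.

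**Figure D4:**
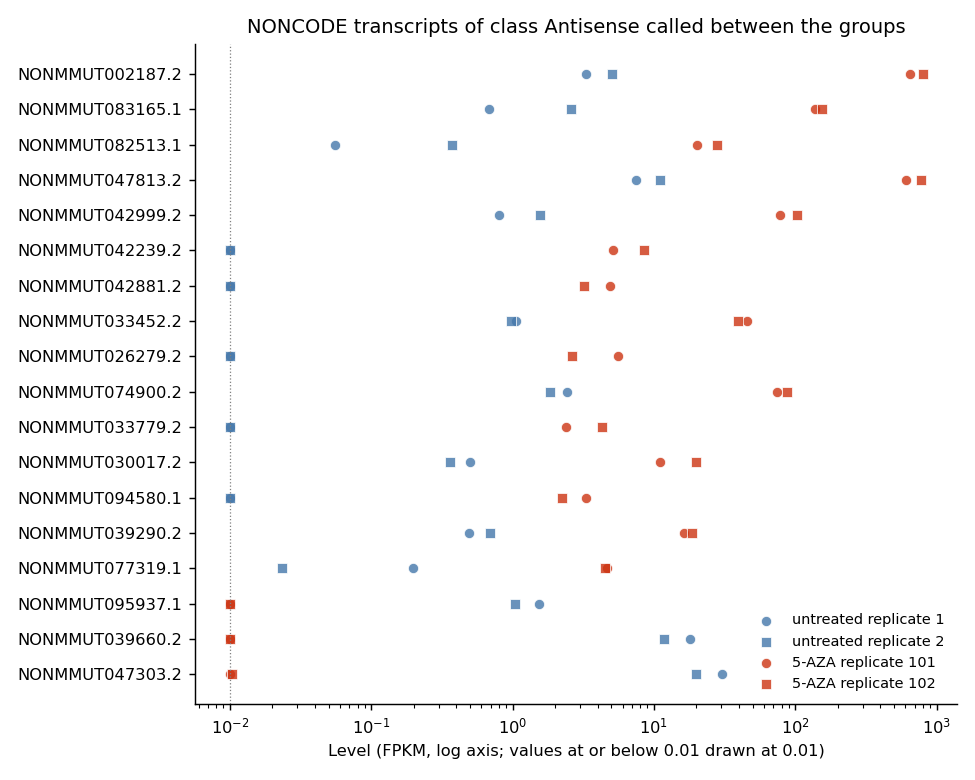
Level of each called member in the 4 samples (FPKM, log axis, with values at or below 0.01 drawn at 0.01), with untreated samples in blue, 5-AZA samples in red and 1 point per replicate. All 15 members called higher have both 5-AZA points above both untreated points, and the 3 called lower have them below. These members were chosen by their change in the samples drawn.

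The largest rises by level were in 2 multi-exon transcripts. NONMMUT002187.2, 3 exons at chr1:103205166-103212049 on the minus strand, had 3.28 and 5.09 FPKM in untreated and 652 and 800 FPKM in 5-AZA cells (log2 fold change 7.43, SE 0.28, limma adjusted p = 0.00482). It overlapped no protein-coding gene, and the pseudogene Gm18728 shared its region. NONMMUT047813.2, 2 exons at chr4:78512349-78513396 on the plus strand, had 7.44 and 11.0 FPKM against 605 and 772 FPKM (log2 fold change 6.22, SE 0.27, limma adjusted p = 0.00619). Its nearest protein-coding gene, the receptor phosphatase Ptprd, lay 300607 bases away and was at or near 0.

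Other members had low levels in untreated cells and rose to over 10 FPKM. NONMMUT083165.1, 3 exons at chr11:15883903-15885672 on the plus strand, had 0.679 and 2.57 FPKM against 138 and 155 FPKM (log2 fold change 6.67, SE 0.63, limma adjusted p = 0.0334), a call lost with a pseudocount of 0.01 FPKM (0.0536) and without the trend in limma (0.0714). The Linc transcript NONMMUT008641.2 began at the same base and had 2.36 and 2.28 FPKM against 235 and 278 FPKM, so that the 2 classes described one locus with the same direction. NONMMUT042999.2, 2 exons at chr3:51622943-51625091 on the plus strand, had 0.797 and 1.57 FPKM against 78.2 and 103 FPKM (log2 fold change 6.20, SE 0.38, limma adjusted p = 0.0109). The nearest gene to it, Mgst2, a microsomal glutathione transferase on the same strand 11821 bases away, was also called higher (log2 fold change 2.89).

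NONMMUT033452.2, a single exon at chr19:4062439-4065879 on the minus strand, had 1.05 and 0.971 FPKM against 45.7 and 39.6 FPKM (log2 fold change 5.26, SE 0.20, limma adjusted p = 0.00482). It lay 2834 bases from Gstp3, a gene of the glutathione transferase family that was not tested. NONMMUT039290.2, 5 exons at chr2:118554970-118558381 on the plus strand, had 0.492 and 0.693 FPKM against 16.4 and 18.6 FPKM (log2 fold change 4.68, SE 0.25, limma adjusted p = 0.00899). At the same locus NONMMUT039292.2, of the class Sense No Exonic, had 1.16 and 1.51 FPKM against 154 and 185 FPKM. The proapoptotic gene Bmf, 5284 bases away, had a log2 fold change of 0.29 and was not called (limma adjusted p = 0.355).

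NONMMUT074900.2, 5 exons at chrY:87776942-87781093 on the plus strand, had 2.42 and 1.83 FPKM against 73.7 and 86.9 FPKM (log2 fold change 5.18, SE 0.23, limma adjusted p = 0.00619). The long arm of the mouse Y chromosome is made of gene families in many near-identical copies, so reads may be split among copies and the value is uncertain. NONMMUT082513.1, a single exon on chr10:99100019-99101645, minus strand, had 0.0552 and 0.375 FPKM against 20.3 and 27.9 FPKM (log2 fold change 6.46, SE 0.61, limma adjusted p = 0.0332), a call lost with a pseudocount of 0.01 FPKM (0.0966) and without the trend (0.0691). NONMMUT030017.2, 2 exons at chr17:51857416-51864780 on the plus strand, had 0.496 and 0.359 FPKM against 11.1 and 19.9 FPKM (log2 fold change 4.84, SE 0.38, limma adjusted p = 0.0219), and its call was lost without the trend (0.0553). The gene nearest to it, Satb1, a chromatin organiser 24126 bases away, was not tested.

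The other members called higher were listed at 0 or near it in untreated cells, so no fold is given for them. NONMMUT042239.2, whose promoter is printed above, has 2 exons on the minus strand at chr3:21753657-21800772, the locus of the lncRNA 7530428D23Rik, and was listed at 0 and 0 FPKM against 5.12 and 8.56 FPKM (limma adjusted p = 0.0109). NONMMUT033779.2, a single exon at chr19:8019559-8020611, was listed at 0 and 0 FPKM against 2.39 and 4.29 FPKM (limma adjusted p = 0.0234), and NONMMUT094580.1, 2 exons at chr14:70072150-70072580, at 0 and 0 FPKM against 3.30 and 2.23 FPKM (limma adjusted p = 0.0202). Both lost their call with a pseudocount of 1 FPKM (limma adjusted p = 0.0865 and 0.0545) and with a limit of 1 FPKM on the mean (0.0924 and 0.118). NONMMUT094580.1 lay 4737 bases from the early response gene Egr3, whose log2 fold change of −0.78 was not called (limma adjusted p = 0.0787).

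A pair of single-exon transcripts called higher ended at the 3′ end of a gene on the same strand. NONMMUT042881.2 (chr3:41615640-41616855) ended 9 bases from the 3′ end of Jade1, a subunit of a histone acetyltransferase complex, and had 5.56e-08 and 0.00943 FPKM against 4.86 and 3.19 FPKM (limma adjusted p = 0.0145). Jade1 itself was called higher, from 4.42 and 4.22 FPKM to 10.3 and 12.2 FPKM (log2 fold change 1.36, limma adjusted p = 0.000248). NONMMUT026279.2 (chr16:32300175-32301409) ended 33 bases from the 3′ end of Rnf168, a ubiquitin ligase of the DNA damage response, and had 2.15e-08 and 0.00765 FPKM against 5.62 and 2.65 FPKM (limma adjusted p = 0.0290). Rnf168 was not called (log2 fold change −0.33, limma adjusted p = 0.208). NONMMUT026279.2 lost its call with a pseudocount of 1 FPKM (limma adjusted p = 0.118), with a limit of 1 FPKM on the mean (0.0619) and without the trend (0.0554).

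NONMMUT077319.1, 5 exons at chr1:9942081-9944147 on the minus strand, came closest to the threshold. It is a transcript at the locus of Snhg6, a small nucleolar RNA host gene, and had 0.198 and 0.0232 FPKM against 4.69 and 4.52 FPKM (limma adjusted p = 0.04997). The other lncRNAs tested at the locus were not called and lay on both sides of 0, such as NONMMUT000121.2 with 8.53 and 10.4 FPKM against 11.3 and 11.6 FPKM (log2 fold change 0.28) and NONMMUT000125.2 with 0.979 and 2.53 FPKM against 0.251 and 0.503 FPKM (log2 fold change −1.87). The call of NONMMUT077319.1 was lost with a pseudocount of 0.01 FPKM (limma adjusted p = 0.163) and without the trend (0.0892). The protein-coding gene Mcmdc2, which overlaps its region and acts in meiotic recombination, had 5.68e-08 and 0.0463 FPKM against 5.42 and 5.18 FPKM, and was called higher (limma adjusted p = 4.81e-06). The strand of Mcmdc2 was not on hand.

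The 3 members called lower were single-exon transcripts that were at or near 0 after 5-AZA. NONMMUT047303.2, at chr4:53565750-53567810 on the plus strand, had 30.2 and 20.0 FPKM in untreated and 0.00305 and 0.0103 FPKM in 5-AZA cells (limma adjusted p = 0.00520). It lies within Slc44a1, a choline transporter gene on the same strand, which had 74.2 and 74.6 FPKM against 58.9 and 60.4 FPKM (log2 fold change −0.32, limma adjusted p = 0.0351, under 2-fold). NONMMUT039660.2, at chr2:126791564-126792418 on the minus strand, had 18.0 and 11.8 FPKM against 4.86e-06 and 1.61e-07 FPKM (limma adjusted p = 0.00619). The size of both falls is set by the pseudocount, with log2 fold changes of −7.85 and −7.20 at 0.1 FPKM, −10.56 and −10.51 at 0.01 FPKM and −4.67 and −3.96 at 1 FPKM, and both calls remained. NONMMUT039660.2 ends 6 bases from the 3′ end of Trpm7, an ion channel and kinase gene on the same strand, which was not called (log2 fold change −0.26, limma adjusted p = 0.118).

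NONMMUT095937.1, 370 bases at chr15:62137091-62137460 on the plus strand, had 1.55 and 1.04 FPKM against 0 and 0 FPKM (limma adjusted p = 0.0456). Its call was lost with a pseudocount of 0.01 FPKM (limma adjusted p = 0.0743), with one of 1 FPKM (0.123) and without the trend (0.0554), and it was not tested with a limit of 1 FPKM on the mean. It lies within the region of the lncRNA Pvt1, where longer transcripts such as NONMMUT023685.2 had 0.754 and 0.557 FPKM against 0.515 and 0.616 FPKM and did not pass. Among members with more exons, the largest falls with groups that did not overlap were not called. NONMMUT037179.2, 8 exons at chr2:48949510-49245737 on the plus strand, had 2.71 and 0.849 FPKM against 1.96e-10 and 2.27e-05 FPKM (limma adjusted p = 0.123), on the strand of Mbd5 and opposite to Orc4. NONMMUT039323.2, 2 exons at chr2:119104933-119106317 on the plus strand, had 2.87 and 1.47 FPKM against 0.530 and 0.842 FPKM (log2 fold change −1.49, limma adjusted p = 0.321), on the strand of the kinetochore gene Knl1.

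The calls were then counted by what the members overlapped, beside the 1.14% called of all lncRNAs. Of the 380 tested members away from every protein-coding gene, 12 were called higher and 1 was called lower, and their log2 fold changes had a median of −0.13. Of the 460 on the strand of a gene only, 2 were called higher and 2 lower, and the median was −0.35. None of the 85 that lay opposite to genes only, nor of the 18 on both strands, was called, and 1 of the 178 without a gene strand was called higher. At a share of 1.14% sets this small can hold no call, so the absence of calls does not set them apart. Members opposite to genes were also lower, at a median level of 0.317 FPKM against 0.627 FPKM on the same strand, and 52.9% against 86.7% of them had a single exon. The difference between these sets was not tested.

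The members that do lie opposite to a gene were compared with it side by side. The gene was tested in 67 pairs, at 63 genes, of which 2 were called higher and 1 lower (4.76%, against 14.4% of all genes). The median log2 fold change was −0.18 for all 85 of these members and −0.060 for the genes, the signs were the same in 40 of the 67 pairs, and the values of both came from the same libraries (Pearson r = −0.023, Spearman rho = 0.11 across pairs). The lists of 20 skeletal muscle, 16 cardiac, 12 adipocyte and 25 imprinted genes held 50 genes that were tested, and limma called 41 of these higher after 5-AZA. By list, 16 of 16 muscle, 7 of 8 cardiac, 10 of 11 adipocyte and 8 of 15 imprinted genes were called higher. None of them was the gene that a tested member overlapped most on the opposite strand.

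For the 3 called genes that face members lying opposite to genes only, the values of gene and member are set side by side. A further called gene, Gm7609 (log2 fold change 2.97, limma adjusted p = 0.000479), lies opposite to NONMMUT001754.2, which also overlaps a gene on its own strand. That member had the same sign and groups that overlapped (log2 fold change 0.87, limma adjusted p = 0.636). Kank4os (NONMMUT048265.2) had 0.185 and 0.0453 FPKM in untreated and 1.30 and 1.95 FPKM in 5-AZA cells, and Kank4, a regulator of the actin cytoskeleton, had 0.516 and 0.528 FPKM against 0.208 and 0.206 FPKM. The gene was called lower (log2 fold change −1.02, limma adjusted p = 0.0466), whereas the lncRNA was not called (log2 fold change 3.05, limma adjusted p = 0.125), although in both the groups did not overlap. Apobec2, a gene of the cytidine deaminase family that is expressed in muscle and is in none of these lists, rose from 0 and 0.124 FPKM to 5.99 and 5.98 FPKM (limma adjusted p = 1.83e-05). The transcript opposite to it, NONMMUT029931.2, had 0.688 and 0.276 FPKM against 0.493 and 0.273 FPKM, and its groups overlapped (log2 fold change −0.21, limma adjusted p = 0.885). C1ql3, a secreted C1q-related protein, rose from 0.0546 and 0.207 FPKM to 0.875 and 0.752 FPKM (log2 fold change 2.06, limma adjusted p = 0.00563), while NONMMUT035787.2 had 0.493 and 0.427 FPKM against 0.179 and 0.141 FPKM and was not called (log2 fold change −1.11, limma adjusted p = 0.346).

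On the same strand, the gene was tested for 424 members at 325 genes, of which 9 were called higher and 2 lower (3.38%, against 14.4% of all genes). Across these pairs the log2 fold changes of member and gene had a Pearson r of 0.36 and a Spearman rho of 0.35, with the same sign in 275, and only Jade1 and its member were both called. In the muscle gene Tmem182, called higher from 0.0279 and 0.0157 FPKM to 9.01 and 15.1 FPKM, the member NONMMUT000717.2, which ends 1 base from the end of the gene, was listed at 0 and 0 FPKM against 6.60 and 0.0145 FPKM, so it rested on replicate 101 alone. Npr3, the natriuretic peptide clearance receptor, was called higher from 7.87 and 7.07 FPKM to 37.0 and 41.6 FPKM, and its member NONMMUT022770.2 had 0.694 and 1.37 FPKM against 3.28 and 3.44 FPKM (log2 fold change 1.68, limma adjusted p = 0.226).

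Klf12, a transcriptional repressor, was called lower, from 8.12 and 7.94 FPKM to 3.67 and 3.46 FPKM. It held 5 tested single-exon members on its strand, all with log2 fold changes below 0, from −1.43 to −0.19, and none was called. The median of all 460 members on the strand of a gene only was −0.35. NONMMUT021993.2 rested on untreated replicate 1 (0.548 FPKM, against 0.0124 FPKM in replicate 2), and the groups of NONMMUT094814.1 overlapped. In Crocc2, called higher (log2 fold change 1.53), the member NONMMUT076006.1 had −0.48 and was not called. Members within a gene share its strand, region and libraries: 478 tested members overlapped a gene on their own strand, 411 of these had a single exon, 451 lay wholly inside the gene and 26 ended within 100 bases of its 3′ end. How far such values hold reads of the gene itself was not tested, and whether the authors' counting used strand is not given in the sources used here.

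**Figure D5:**
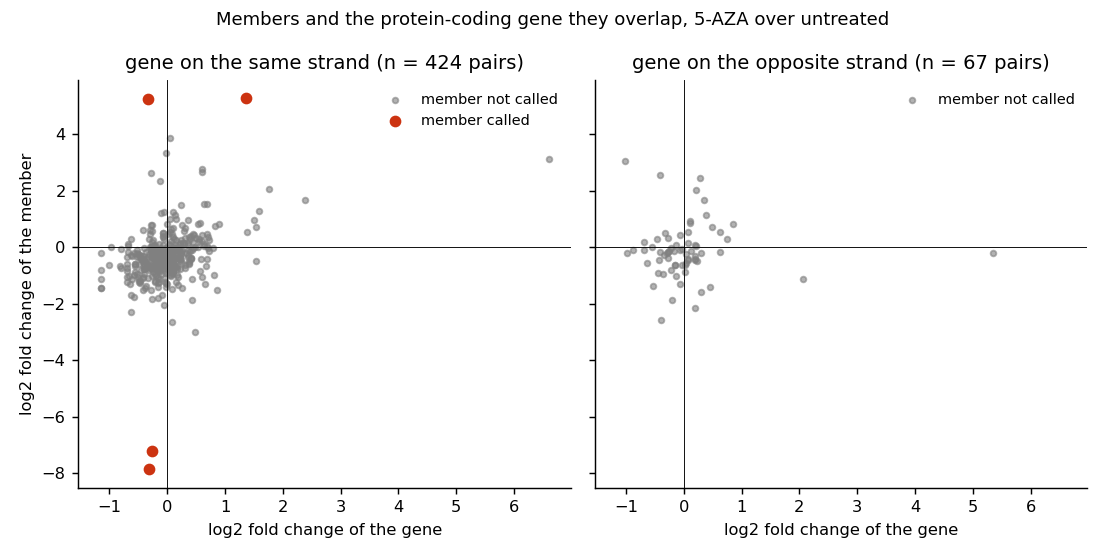
Log2 fold change of each tested member (vertical axis) against that of the protein-coding gene it overlaps (horizontal axis), for 424 pairs on the same strand and 67 pairs on opposite strands. Pearson r across pairs is 0.36 on the same strand and −0.023 on opposite strands, and only Jade1 and its member were both called.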

How the data were processed

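Ribosomal RNA was removed from total RNA, which was sequenced from 2 untreated and 2 5-AZA samples with a stranded kit. The authors trimmed the reads with Trimmomatic and, per the labels' processing notes, used HISAT2, Bowtie2 2.2.9 and eXpress 1.5.1. The authors deposited FPKM values per transcript for mRNAs and lncRNAs. Read counts cannot be had from FPKM, and the depth behind each value is unknown. The notes name mm9, but 382 of 598 lncRNAs sourced from RefSeq (63.9%) matched the exact span of a GRCm38 RefSeq gene, so coordinates are given as GRCm38, 1-based. The circRNA values were not used here.

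Log2(FPKM + 0.1) was fitted, where the mean reached 0.1 FPKM, with limma 3.58.1 (lmFit, eBayes with trend) in R 4.3.3, with files read by the package data.table (version 1.17.8), on all 24075 lncRNAs and, with transcripts summed per gene, on 13199 genes, each adjusted separately by Benjamini and Hochberg's method. In simulated lncRNA data of 24075 features, 200 rises per draw over 5 draws were placed only where the mean of FPKM + 0.1 exceeded 1. Of the 1121 members tested, 331 reached a mean of 1 FPKM, so recovery at the level of most members was not measured. Of the log2 rises, 63.8% of those of 4 and 88.2% of those of 8 were recovered, and 7.43% of calls were false. For 13199 genes both were 100% and 2.34%.

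Named members were all those called, the 5 with the highest means, and per exon bin the largest rise and fall with groups that did not overlap and at least 1 FPKM in the higher group, with their nearest or overlapping genes. Kank4os, NONMMUT029931.2, NONMMUT035787.2, NONMMUT001754.2 and the members in Tmem182, Npr3, Klf12 and Crocc2 were chosen after their values were seen. So were the members with microRNA hairpins in their spans and the transcripts with printed promoters. The members, lists and tests were chosen with earlier results of these data known. Alternatives were other pseudocounts, limits, scalings, eBayes without trend and omission of each sample. RefSeq promoters and gene strands are from GRCm38.p6. The value of a further marker gene is not reported here.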

Additional observations from a re-analysis of the deposited data

How the results depend on the processing

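Of the 18 calls, 14 remained with a pseudocount of 0.01 FPKM, 14 with 1 FPKM, 14 with a limit of 1 FPKM, 12 without the trend, and all 18 with samples centred on their medians or quantile normalized. With no limit on low values limma tested 2639 members. An unadjusted p below 0.05 was held by 87 higher and 139 lower members, and the share of all lncRNAs at this p was not counted. In that fit 0 members were called higher and 0 lower. Leaving out each sample in turn also gave 0 and 0, with the lone sample assumed to vary like the others and 1 residual degree of freedom fewer. Restricting to members with no protein-coding gene known to lie on their strand, chosen after seeing the data, left 643. The 178 members whose gene strand was not on hand stayed among them. Of the 643, 13 were called higher and 1 lower (2.18%, against 1.14% of all lncRNAs tested), and the median was −0.18.

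The median log2 fold change of −0.25 became −0.11 with a pseudocount of 1, 0 with no limit, −0.085 centred and −0.13 quantile normalized, where that of all lncRNAs went from −0.23 to −0.086, 0, −0.060 and −0.11. For 1 exon it was −0.11, −0.054, −0.12 and −0.15 under these settings. For 2 exons it was 0 with no limit and −0.024 centred. For 3 or more exons it was 0.44 with a limit of 1 FPKM, −0.0024 with a pseudocount of 1 and 0 with no limit. For 2000 or more bases it was −0.36 with a pseudocount of 0.01, −0.12 with 1, −0.044 with no limit, −0.14 centred and −0.18 quantile normalized. From 500 to under 1000 bases it was −0.090 with a pseudocount of 1, 0 with no limit and −0.035 centred, and from 1000 to under 2000 bases 0 with no limit and 0.0087 centred. The cause of these moves was not tested.

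With each sample left out the median ranged from −0.33 to −0.20 over all members, −0.38 to −0.21 for 1 exon, −0.19 to −0.16 for 2 exons, −0.091 to 0.34 for 3 or more exons, −0.23 to 0.32 under 500 bases, −0.34 to −0.18 from 500 to under 1000 bases, −0.24 to −0.14 from 1000 to under 2000 bases and −0.38 to −0.24 for 2000 or more bases. The summed level ratio ranged from 1.06 to 1.26 and that of the share from 0.795 to 0.976. NONMMUT033601.2 turned to −0.28 when quantile normalized and ranged from −0.050 to 0.22 with a sample left out, NONMMUT024712.2 from −0.081 to 0.32 and NONMMUT046978.2 from −0.14 to 0.38. No paired analysis was possible because the untreated samples are numbered 1 and 2 and the 5-AZA samples 101 and 102, with no number shared. The number of samples and the unknown depth limit every value.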

Other observations

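Transcripts assembled anew from these reads and listed with the class antisense numbered 15, of which 13 were tested and 0 were called by limma. NONMMUT073467.2 began 16 bases from the start of Xist on the same strand and had 5.88 and 3.67 FPKM in untreated and 10.04 and 3.81 FPKM in 5-AZA cells, with groups that overlapped.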
